A study of Mus musculus with 12 samples.

Results

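AU-rich elements are stretches of adenine and uracil in messenger RNAs, and the proteins that bind them decide how long many short-lived transcripts persist. Tristetraprolin and its relatives, encoded by Zfp36, Zfp36l1 and Zfp36l2, recruit deadenylases that shorten the poly(A) tail and so destabilize their targets, many of them cytokine and growth-control mRNAs. KSRP, encoded by Khsrp, also promotes decay, whereas HuR, encoded by Elavl1, and the neuronal Hu proteins, encoded by Elavl2, Elavl3 and Elavl4, mostly stabilize the transcripts that they bind. AUF1, encoded by Hnrnpd, can act in either direction, and TIA-1, encoded by Tia1, represses translation. Wig-1, a zinc finger protein encoded by Zmat3, has itself been described as a protein that acts on AU-rich mRNA, which is why these genes were chosen.

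The members were these 10 named genes, matched to array probes by gene symbol. They had 25 of the 45281 probes on the Illumina MouseWG-6 v2 bead array, and 16 of the 25 passed the filter, which kept a probe if 4 or more of the 12 arrays detected it (detection p-value under 0.01). These 16 probes measured 9 of the 10 genes, among 10031 genes measured in all. Zfp36l2 had 1 probe, which was detected on 0 of the 12 arrays, so no value is given for it. Where a gene had several kept probes, the one with the brightest average stands for it.

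RNA came from the striatum of BACHD mice aged 5 months, a transgenic mouse model of Huntington's disease. All 3 groups of 4 arrays carried the human huntingtin transgene, and no wild-type array was used here. The groups had received, by a single injection into the striatum, PBS, an antisense oligonucleotide (ASO) against wig-1, or a negative control ASO, and the study's methods give 4 mice to a group. Each array detected between 15228 and 17198 probes, and the targeted gene went with the labels: the Zmat3 probe had a mean log2 intensity of 8.49 ± 0.11 with PBS, 8.45 ± 0.10 with the control ASO and 6.56 ± 0.42 with the wig-1 ASO (SD, n = 4). Zmat3 fell by 1.93 on the log2 scale against PBS (SE 0.18, limma adjusted p = 0.000842).

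None of the 9 measured genes passed the test at the limit of 0.05 in any comparison. At a limma adjusted p under 0.05, 0 of 9 were called for wig-1 ASO against PBS, where 3.81% of all genes were called. The count was 0 of 9 for wig-1 ASO against control ASO (1.08% of all genes) and 0 of 9 for control ASO against PBS (0% of all genes). At an unadjusted p under 0.05, the counts were 4 of 9 (18.7% of all genes), 3 of 9 (14.7%) and 0 of 9 (6.29%). The SAM test that the methods name was run at the study's false discovery rate limit of 0.1. It also called 0 of them in each comparison (q = 0.127 for Zfp36 and 0.166 for Zfp36l1 against PBS). Among all 17188 kept probes SAM called 600, 72 and 0 in the same order of comparisons. At a limma adjusted p under 0.1, the counts were 2 of 9 (Zfp36 and Zfp36l1, 6.85% of all genes), 0 of 9 (2.79%) and 0 of 9 (0%). The genes with the smallest unadjusted p values against PBS were Zfp36, Zfp36l1 and Elavl1, which were higher with the wig-1 ASO, and Elavl2, which was lower. Members are few, so these counts describe the list and were not tested as a set.

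**Figure D1:**
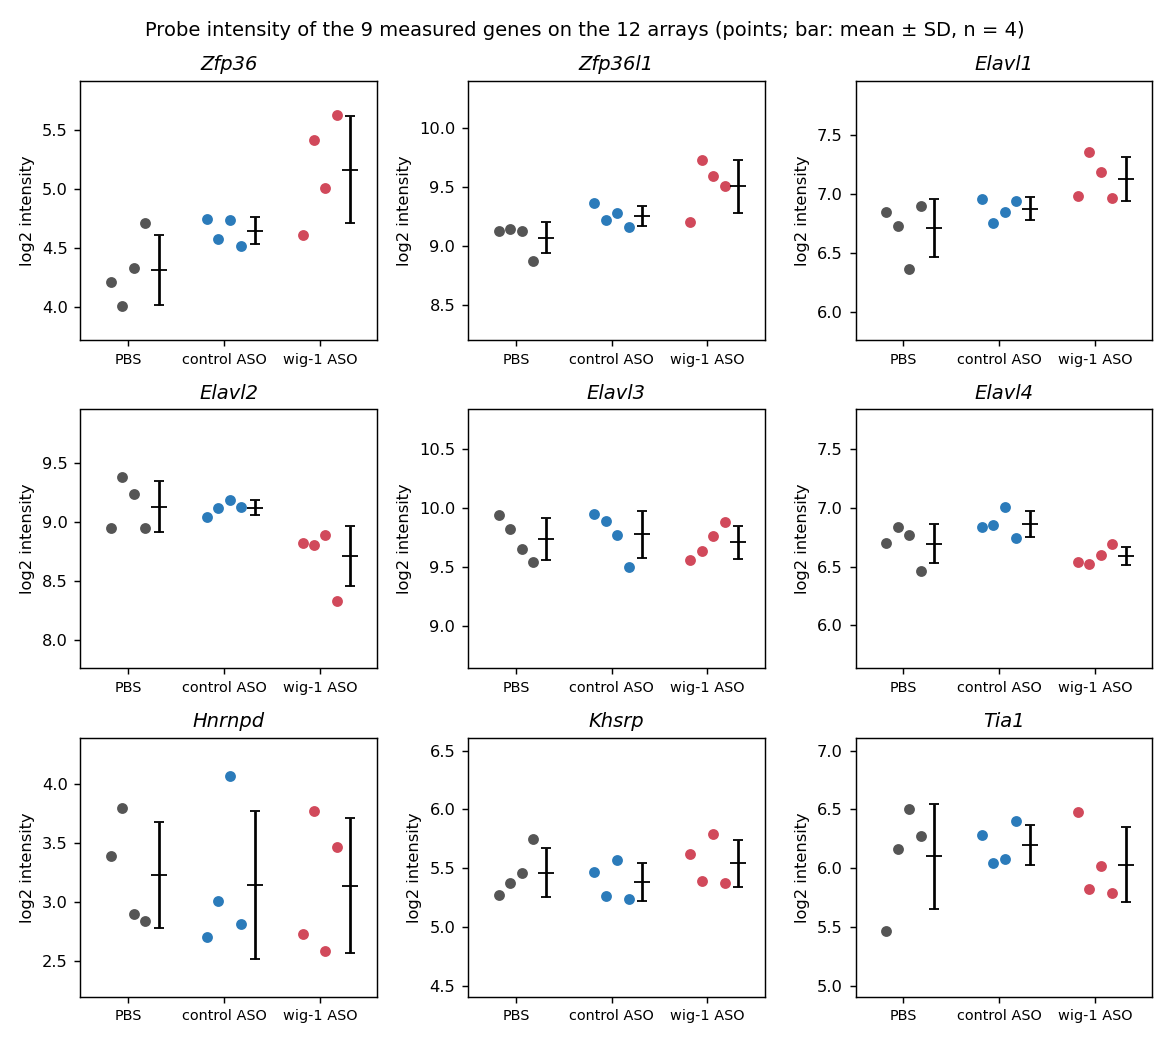
Log2 probe intensity (vertical axis, the same span in each panel) of the 9 measured genes on each array, by group (horizontal axis), with the group mean and SD at the right of the 4 points. Zfp36, Zfp36l1 and Elavl1 have their highest points among the wig-1 ASO arrays and Elavl2 its lowest, while the points of Elavl3, Hnrnpd, Khsrp and Tia1 overlap between groups.

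The 2 measured tristetraprolin family genes had the smallest unadjusted p values against PBS, and the 250 bases before their start sites are shown for that reason, from RefSeq on build GRCm38.p6, each on the strand of its gene. The Zfp36 window lies at chr7:28379229-28379478 and the Zfp36l1 window at chr12:80113014-80113263, both on the minus strand. Capitals mark matches, on either strand, to the CArG box, which serum response factor binds, to the Egr motif (GCGGGGGCG or GCGTGGGCG), to the AP-1 motif (TGANTCA) and to TATAAA.
Zfp36: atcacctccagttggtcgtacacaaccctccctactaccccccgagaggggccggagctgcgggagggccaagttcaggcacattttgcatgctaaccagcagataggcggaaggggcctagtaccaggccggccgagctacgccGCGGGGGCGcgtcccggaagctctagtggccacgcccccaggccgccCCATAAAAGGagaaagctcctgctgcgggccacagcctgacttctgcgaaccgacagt
Zfp36l1: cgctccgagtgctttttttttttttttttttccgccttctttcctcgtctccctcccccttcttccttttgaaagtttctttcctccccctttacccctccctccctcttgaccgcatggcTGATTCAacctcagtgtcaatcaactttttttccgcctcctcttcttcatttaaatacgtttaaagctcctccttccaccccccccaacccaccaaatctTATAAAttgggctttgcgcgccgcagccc
The Zfp36 window held 1 CArG box, from 58 to 49 bases before the start, and 1 Egr motif, from 105 to 97 bases before it. The Zfp36l1 window held 1 AP-1 motif, from 129 to 123 bases before the start, and 1 TATAAA, from 29 to 24 bases before it. Among 32851 RefSeq windows of this length, 1.47% held a CArG box, 3.06% the Egr motif, 6.75% the AP-1 motif and 12.4% TATAAA. These matches describe the letters only. Windows were found for 9 of the 10 members, 17 in all, since Elavl2 and Elavl4 have several starts. Of the others, 2 Elavl4 windows held a CArG box, the Elavl3 window held TATAAA, and none held the Egr or AP-1 motif. Those 2 Elavl4 windows overlap, so both may hold the same site, and some Elavl2 windows overlap as well. TGACGTCA and the NF-kB motif were found in 0 of the 17 windows, against 1.55% and 7.25% of all windows.

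Zfp36 encodes tristetraprolin, the founding member of the family. Its single probe read 4.21, 4.01, 4.33 and 4.71 on the 4 PBS arrays, 4.61, 5.42, 5.01 and 5.63 on the 4 wig-1 ASO arrays, and 4.75, 4.58, 4.74 and 4.52 on the 4 control ASO arrays (log2 intensity). Wig-1 ASO replicate 1 lay below PBS replicate 4, and the other 3 wig-1 ASO arrays lay above every PBS and control array. The mean difference from PBS was 0.85 on the log2 scale, or 1.80-fold (SE 0.21, 95% interval 0.39 to 1.32, limma adjusted p = 0.0526, exact two-sided permutation p = 0.0571). Against the control ASO it was 0.52 (95% interval 0.05 to 0.98, limma adjusted p = 0.300), and the control ASO itself lay 0.33 above PBS (95% interval -0.13 to 0.80, adjusted p = 0.771). The value against PBS sits next to the threshold: without wig-1 ASO replicate 1 it was 1.04 with an adjusted p of 0.00841, without PBS replicate 4 the adjusted p was 0.0439, and over the 25 alternatives the adjusted p ran from 0.00841 to 0.425 and passed in 7.

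Zfp36l1 encodes a relative of tristetraprolin with the same pair of zinc fingers. Its brighter probe read 9.13, 9.14, 9.13 and 8.87 with PBS, 9.20, 9.73, 9.59 and 9.51 with the wig-1 ASO, and 9.36, 9.22, 9.28 and 9.16 with the control ASO. All 4 arrays of each ASO group lay above all 4 PBS arrays, and wig-1 ASO replicate 1 lay within the range of the control ASO. The difference from PBS was 0.44, or 1.35-fold (SE 0.12, 95% interval 0.17 to 0.70, limma adjusted p = 0.0790, exact permutation p = 0.0286, the smallest that 70 arrangements allow). Against the control ASO it was 0.25 (95% interval -0.01 to 0.52, limma adjusted p = 0.397), and the control ASO lay 0.18 above PBS (adjusted p = 0.786). A second Zfp36l1 probe gave 0.45 against PBS (95% interval 0.13 to 0.77) and 0.24 against the control ASO (95% interval -0.08 to 0.56). On that probe the control ASO lay 0.21 above PBS (95% interval -0.11 to 0.53), and those groups overlapped. Without wig-1 ASO replicate 1 the brighter probe gave 0.54 with an adjusted p of 0.0148, and over the 25 alternatives the adjusted p ran from 0.0148 to 0.600 and passed in 4.

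Elavl1 encodes HuR, the member of the Hu family that is found in most tissues. It read 6.85, 6.73, 6.36 and 6.90 with PBS, 6.98, 7.36, 7.19 and 6.97 with the wig-1 ASO, and 6.96, 6.75, 6.85 and 6.94 with the control ASO. All 4 wig-1 ASO arrays lay above the other 8, though the lowest of them exceeded the highest control array by little. The difference was 0.41 against PBS, or 1.33-fold (SE 0.14, 95% interval 0.11 to 0.71, limma adjusted p = 0.136), and 0.25 against the control ASO (95% interval -0.05 to 0.55, limma adjusted p = 0.458). The exact permutation p was 0.0286 in either comparison. Elavl1 did not pass the adjusted threshold under any of the 25 alternatives.

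Elavl2, which encodes the neuronal protein HuB, was the one member that lay lower with the wig-1 ASO than in both other groups and had an unadjusted p under 0.05 in both comparisons. Its brighter probe read 8.95, 9.38, 9.24 and 8.95 with PBS, 8.82, 8.80, 8.89 and 8.33 with the wig-1 ASO, and 9.04, 9.12, 9.19 and 9.13 with the control ASO. All 4 wig-1 ASO arrays lay below all 8 other arrays, and replicate 4 was the lowest. The wig-1 ASO mean was 74.8% of that with PBS (log2 difference -0.42, SE 0.14, 95% interval -0.73 to -0.11, limma adjusted p = 0.147). It was 75.2% of that with the control ASO (log2 difference -0.41, 95% interval -0.72 to -0.10, limma adjusted p = 0.218). The control ASO differed from PBS by -0.01 (95% interval -0.32 to 0.31). A second Elavl2 probe gave -0.37 against PBS (95% interval -0.76 to 0.01) and -0.42 against the control ASO (95% interval -0.81 to -0.04). On that probe the wig-1 ASO arrays overlapped those of both other groups. The adjusted p against PBS ran from 0.0543 to 0.398 over the 25 alternatives.

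Groups without overlap were found for 3 of the 9 genes in wig-1 ASO against PBS (Zfp36l1, Elavl1 and Elavl2), against 11% of all genes. They were found for 3 of the 9 in wig-1 ASO against control ASO (Elavl1, Elavl2 and Elavl4), against 9.29%, and for 1 of the 9 in control ASO against PBS (Zfp36l1), against 5.01%. These comparisons share arrays, so these counts are not independent. They also use 1 probe per gene. The second Elavl2 probe overlapped in both wig-1 ASO comparisons, and the other kept Elavl4 probes overlapped against the control ASO. The second Zfp36l1 probe separated wig-1 ASO from PBS but not control ASO from PBS.

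Elavl4 encodes HuD, a neuronal Hu protein known for stabilizing transcripts of growing axons. Its brightest probe read 6.70, 6.84, 6.77 and 6.46 with PBS, 6.54, 6.52, 6.60 and 6.69 with the wig-1 ASO, and 6.84, 6.85, 7.01 and 6.74 with the control ASO. The wig-1 ASO arrays lay below every control ASO array but within the range of PBS. The difference was -0.27 against the control ASO (SE 0.10, 95% interval -0.50 to -0.05, limma adjusted p = 0.264) and -0.10 against PBS (95% interval -0.33 to 0.12, limma adjusted p = 0.664). The other 2 kept Elavl4 probes gave 0.06 and 0.47 against PBS, with intervals that reached from -0.62 to 0.75 and from -0.51 to 1.45. Against the control ASO these 2 probes gave -0.23 (95% interval -0.92 to 0.45) and -0.22 (95% interval -1.20 to 0.76). The dimmer of them was detected on 4 of 12 arrays.

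Elavl3, which encodes the neuronal protein HuC, ranged from 9.54 to 9.94 with PBS, from 9.56 to 9.88 with the wig-1 ASO and from 9.50 to 9.95 with the control ASO. Its difference from PBS was -0.02 (95% interval -0.31 to 0.26), which corresponds to a ratio between 0.807 and 1.20. Khsrp ranged from 5.27 to 5.75 with PBS, from 5.37 to 5.79 with the wig-1 ASO and from 5.24 to 5.57 with the control ASO. The Khsrp difference from PBS was 0.08 (95% interval -0.22 to 0.38) and that from the control ASO 0.16 (95% interval -0.15 to 0.46). For both genes the 3 groups overlapped.

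Hnrnpd was the dimmest of the measured genes. Its kept probe passed the detection limit on 3 PBS, 2 wig-1 ASO and 3 control ASO arrays, with log2 intensities from 2.58 to 4.07 over all 12. The difference from PBS was -0.09 (SE 0.36, 95% interval -0.88 to 0.69), an interval wide enough to hold a 1.61-fold rise, so little can be said of this gene.

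Tia1 had 3 kept probes that did not behave alike. The brightest read 5.47, 6.16, 6.50 and 6.27 with PBS, ranged from 5.79 to 6.48 with the wig-1 ASO and from 6.04 to 6.40 with the control ASO, and differed from PBS by -0.07 with the wig-1 ASO (95% interval -0.55 to 0.41). A second probe gave -0.18 (95% interval -0.59 to 0.23), and these 2 correlated over the 12 arrays with a Pearson r of 0.794. The third, designed against a cDNA clone sequence, had an r of 0.282 and 0.276 with them. It read 4.60, 5.15, 4.58 and 5.20 with PBS, 5.05, 4.33, 4.13 and 3.65 with the wig-1 ASO, and 4.09, 4.10, 3.95 and 3.98 with the control ASO. All 4 control ASO arrays lay below all 4 PBS arrays on that probe. Its difference from PBS was -0.85 with the control ASO (95% interval -1.41 to -0.29, limma adjusted p = 0.665) and -0.59 with the wig-1 ASO (95% interval -1.15 to -0.03), neither past the threshold. Whether the probes differ from each other was not tested.

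**Figure D2:**
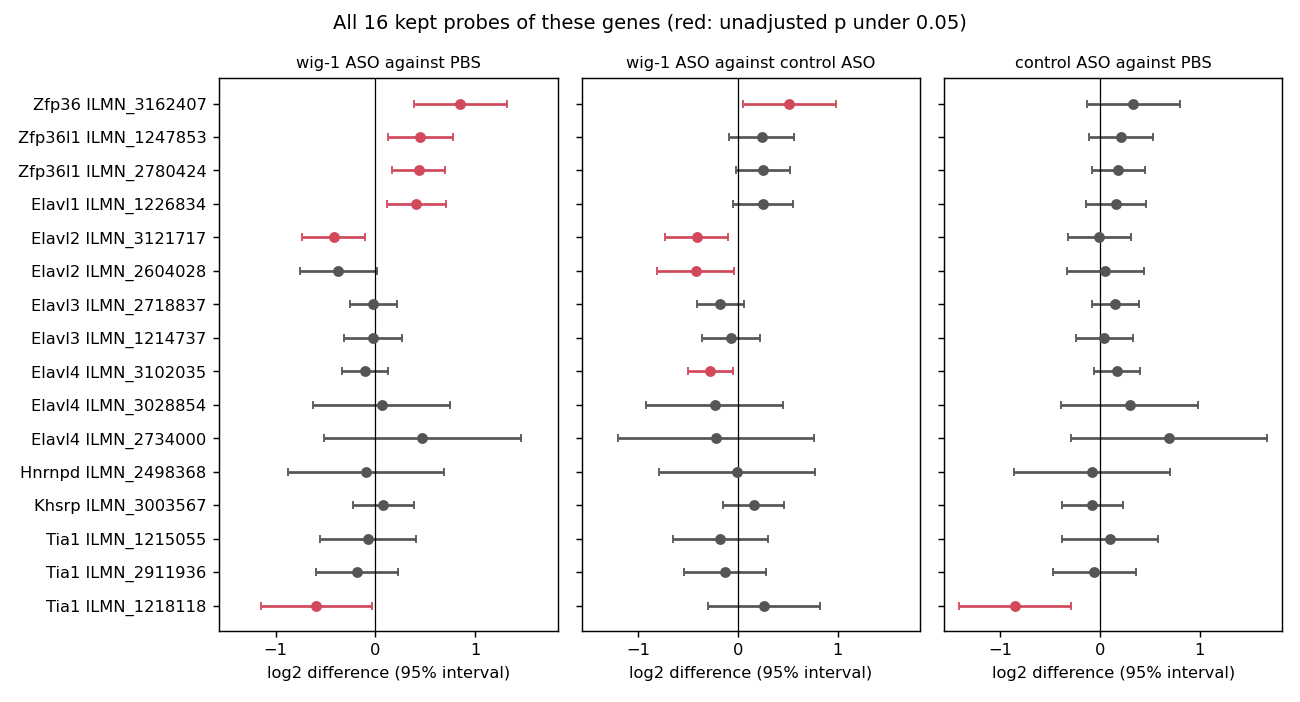
Log2 difference between group means (horizontal axis) with its 95% limma interval for each of the 16 kept probes (vertical axis, gene and probe identifier), in the 3 comparisons. The Zfp36, Zfp36l1 and Elavl1 probes lie to the right of 0 and the Elavl2 probes to the left against PBS, and the third Tia1 probe stands apart from the other 2 Tia1 probes in control ASO against PBS.

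Over all 16 kept probes, 0 were called for wig-1 ASO against PBS, where 3.36% of the 17188 kept probes were called, and 7 lay higher and 9 lower. The median log2 difference of the 9 genes was -0.02, next to -0.01 over all 10031 genes. The list therefore had no common direction, with Zfp36 at 0.85 and Elavl2 at -0.42 at its ends.

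Since RNA was taken from whole tissue, a gain or loss of a cell type and a change in RNA per cell cannot be told apart. Markers of microglia, the resident macrophages of brain, and of other macrophages (microglial markers below) moved strongly with the wig-1 ASO. Against PBS 9 of 12 measured markers rose and 0 fell, where 3.81% of all genes were called. Their median log2 difference was 1.97. C1qa (2.18, SE 0.25), C1qc (2.43, SE 0.28) and C1qb (2.09, SE 0.29), the complement C1q subunits, and Tyrobp (2.0, SE 0.30), a signalling adaptor, had the smallest limma adjusted p values, between 0.00286 and 0.00896. Further markers were named after their values were seen. Csf1r (0.78), Cx3cr1 (0.69) and P2ry12 (0.26) lay higher but were not called (limma adjusted p = 0.0541, 0.135 and 0.132). Gpnmb (4.57) and Lyz2 (3.65) had the largest differences. The 12 markers lay on average 1.03, 2.45, 2.03 and 1.99 above the PBS mean on the 4 wig-1 ASO arrays and 0.54, 0.56, 1.02 and 0.10 above it on the 4 control ASO arrays. Wig-1 ASO replicate 1, the array with the lowest Zfp36, Zfp36l1 and microglial marker values of its group, was thus level with control ASO replicate 3 in these markers.

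Pearson correlations with the microglial marker mean over the 12 arrays were 0.922 for Zfp36l1, 0.864 for Zfp36, 0.717 for Elavl1 and -0.663 for Elavl2. After the group means were removed they were 0.819, 0.599, 0.214 and -0.016. Within groups, members with small differences had values of like size, such as 0.600 for Hnrnpd and -0.555 for Tia1. The 12 points share their groups, so these are descriptions. With the mean of 11 measured markers of medium spiny neurons, the main neurons of the striatum, r was -0.963 for Zfp36l1 and stayed at -0.962 within groups, while the other 8 members lay between -0.408 and 0.449 within groups. None of those 11 markers passed the test (8 had an unadjusted p under 0.05), all 11 lay lower with the wig-1 ASO than with PBS (median -0.62), and the smallest adjusted p values were those of Rasd2 (-0.58, limma adjusted p = 0.0873) and Drd2 (-0.73, limma adjusted p = 0.104). With the control ASO, 9 of the 11 medium spiny neuron markers lay lower than with PBS and 2 higher (median -0.36). Against the control ASO, 10 lay lower with the wig-1 ASO and 1 higher (median -0.24). The part of the microglial and spiny neuron markers in the values of Zfp36, Zfp36l1, Elavl1 and Elavl2 was not tested.

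**Figure D3:**
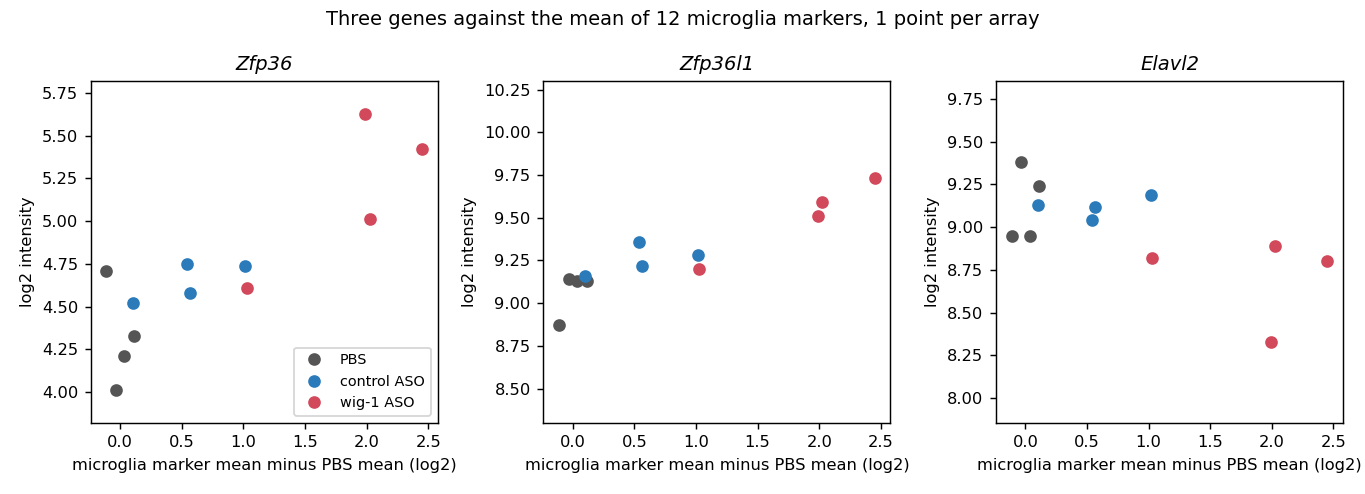
Log2 intensity of Zfp36, Zfp36l1 and Elavl2 (vertical axes) against the mean log2 intensity of 12 microglial markers minus its PBS mean (horizontal axes), 1 point for each of the 12 arrays, coloured by group. The wig-1 ASO array at 1.03 lies beside the control ASO array at 1.02 for Zfp36 and Zfp36l1, whereas its Elavl2 value lies below that array.

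By the median of each list against PBS, the other cell markers moved less than those of microglia. Of all genes, 3.81% were called in that comparison. One of 9 astrocyte markers rose against PBS (Gfap, an intermediate filament protein, 1.77, SE 0.31, limma adjusted p = 0.0146), as did 1 of 10 thalamic, hypothalamic and septal markers (Rora, a nuclear receptor, 0.53, limma adjusted p = 0.0413). Rora gave 0.54 for control ASO against PBS and -0.01 for wig-1 ASO against control ASO, and of the 10 markers 5 lay higher and 5 lower. All 9 astrocyte markers lay higher, 4 of them at an unadjusted p under 0.05. None of 7 oligodendrocyte markers (Cldn11 0.49, Mog 0.35; 1 at an unadjusted p under 0.05) and none of 6 endothelial markers (Cldn5 0.39, Vwf 0.81; 2 at an unadjusted p under 0.05) was called. Of 3 red blood cell markers, Hba-a1, an alpha globin, fell by 0.89 (limma adjusted p = 0.0206), and all 3 lay lower at an unadjusted p under 0.05 against PBS and against the control ASO. Among 8 pan-neuronal markers, which bear on the neuronal Elavl genes, 0 were called against PBS (Nefm -0.54, limma adjusted p = 0.0576; Uchl1 0.27), and Nefm, the medium neurofilament, fell by 0.82 against the control ASO (limma adjusted p = 0.0410).

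The machinery that these proteins call on, its kinases and the other proteins that bind AU-rich RNA gave no call either. Of 71 measured genes on 5 lists, 0 passed the limma threshold against PBS, where 3.81% of all genes did. In the same comparison 6 of the 71 had an unadjusted limma p under 0.05, against 18.7% of all genes. Of the deadenylases and their adaptors, 0 of 13 were called against PBS, 11 lay lower and the median was -0.13. Parn, a poly(A)-specific ribonuclease, ranged from 4.19 to 4.58 with PBS, from 3.89 to 4.17 with the wig-1 ASO and from 4.42 to 4.62 with the control ASO. The wig-1 ASO group lay below the other 2, which overlapped each other, and the difference was -0.43 against PBS (SE 0.11, limma adjusted p = 0.0664) and -0.49 against the control ASO (limma adjusted p = 0.0753). Cnot10, a subunit of the CCR4-NOT deadenylase, gave -0.21 against PBS (limma adjusted p = 0.334).

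Of 14 decapping and exonuclease genes 0 were called, with Lsm2 at -0.30 (limma adjusted p = 0.120) and Lsm3 at 0.14 (adjusted p = 0.576), both subunits of the Lsm ring. Of 12 exosome and SKI complex genes 0 were called, with the nuclease subunit Exosc10 at -0.21 (limma adjusted p = 0.378) and the helicase Skiv2l at -0.18 (adjusted p = 0.519). Other proteins that bind AU-rich or U-rich RNA numbered 18, of which 0 were called. Ptbp1, a splicing repressor, gave 0.40 against PBS (limma adjusted p = 0.141), and Hnrnpa0, a target of the stress kinase MK2, gave -0.20 (adjusted p = 0.301). The known partners of wig-1 gave 0.43 for Hnrnpa2b1 (SE 0.41) and 0.18 for Dhx9, an RNA helicase (SE 0.24), neither called. Against the control ASO they gave -0.24 and -0.17. On PBS replicate 4 Hnrnpa2b1 read 6.17, the other 3 PBS arrays lying between 7.50 and 8.31, and without that array its difference from PBS was -0.02.

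Kinases and adaptors that act on tristetraprolin, KSRP and HuR had 0 of 14 genes called, with 5 higher and 9 lower than PBS and, at an unadjusted p under 0.05, 2 higher and 1 lower. Mapkapk2 encodes MK2, which phosphorylates tristetraprolin and so limits its activity. It ranged from 6.19 to 6.39 with PBS, from 6.42 to 7.17 with the wig-1 ASO and from 6.43 to 6.78 with the control ASO, and gave 0.50 against PBS (SE 0.15, limma adjusted p = 0.111). All wig-1 ASO arrays lay above all PBS arrays and overlapped those of the control ASO. Its relative Mapkapk3 gave 0.71 (limma adjusted p = 0.0913) and was detected on only 4 of 12 arrays, 0 of them PBS. The lower one was Prkca, a protein kinase C named after its values were seen, which gave -0.48 against PBS (limma adjusted p = 0.150) and -0.54 against the control ASO (adjusted p = 0.161).

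Among 30 listed mRNAs known to carry AU-rich elements and to be bound by tristetraprolin or its relatives, 15 were measured, and 4 of those rose against PBS while 0 fell. In that comparison 3.81% of all genes were called. The list was chosen with earlier results of these data known, and Icam1 is on the study's own list of up-regulated genes. The median difference of the 15 was 0.23, next to -0.01 over all genes, with 9 higher and 6 lower. For control ASO against PBS the median of the 15 was 0.17, with 12 higher and 3 lower. For wig-1 ASO against control ASO it was 0.22, with 9 higher and 6 lower. Socs3, a feedback inhibitor of cytokine signalling, ranged from 2.58 to 3.38 with PBS, from 4.15 to 5.56 with the wig-1 ASO and from 3.11 to 3.71 with the control ASO. The wig-1 ASO arrays lay above all others, and the difference was 1.95 against PBS (SE 0.31, limma adjusted p = 0.0106). Its probe was detected on 1 of the 4 PBS arrays. Icam1, an adhesion molecule, rose by 1.07 (adjusted p = 0.0280), Ccnd1, cyclin D1, by 1.08 (adjusted p = 0.0309) and Cdkn1a, the cell cycle inhibitor p21, by 1.24 (limma adjusted p = 0.0324).

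Against the control ASO 0 of the 15 were called (6 were higher and 1 lower at an unadjusted p under 0.05), with Icam1 at 1.03 (limma adjusted p = 0.0582) and Socs3 at 1.40 (adjusted p = 0.0647). Of all genes, 1.08% were called there and 14.7% had an unadjusted limma p under 0.05. The lower one was Fos, an immediate early gene named after its values were seen, which gave -0.69 against the control ASO (limma adjusted p = 0.0681), -0.06 against PBS and 0.64 for control ASO against PBS (adjusted p = 0.525). The count of 4 against PBS fell to 1 when any of the 4 PBS arrays or wig-1 ASO replicate 2, 3 or 4 was left out, rose to 5 without wig-1 ASO replicate 1, and was 4 without each control ASO array. Socs3 passed in all 12 of these fits, and Icam1, Ccnd1 and Cdkn1a each missed the threshold in 7.

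Of 12 measured mRNAs bound by the neuronal Hu proteins, 1 rose against PBS (3.81% of all genes were called), and it was Cdkn1a again. Homer1, a postsynaptic scaffold, and Camk2a, a synaptic kinase, which were picked out after their values were seen, gave -0.54 (limma adjusted p = 0.0531) and -0.54 (adjusted p = 0.0771), with wig-1 ASO arrays below all PBS arrays. The median of the 12 was -0.02.

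**Figure D4:**
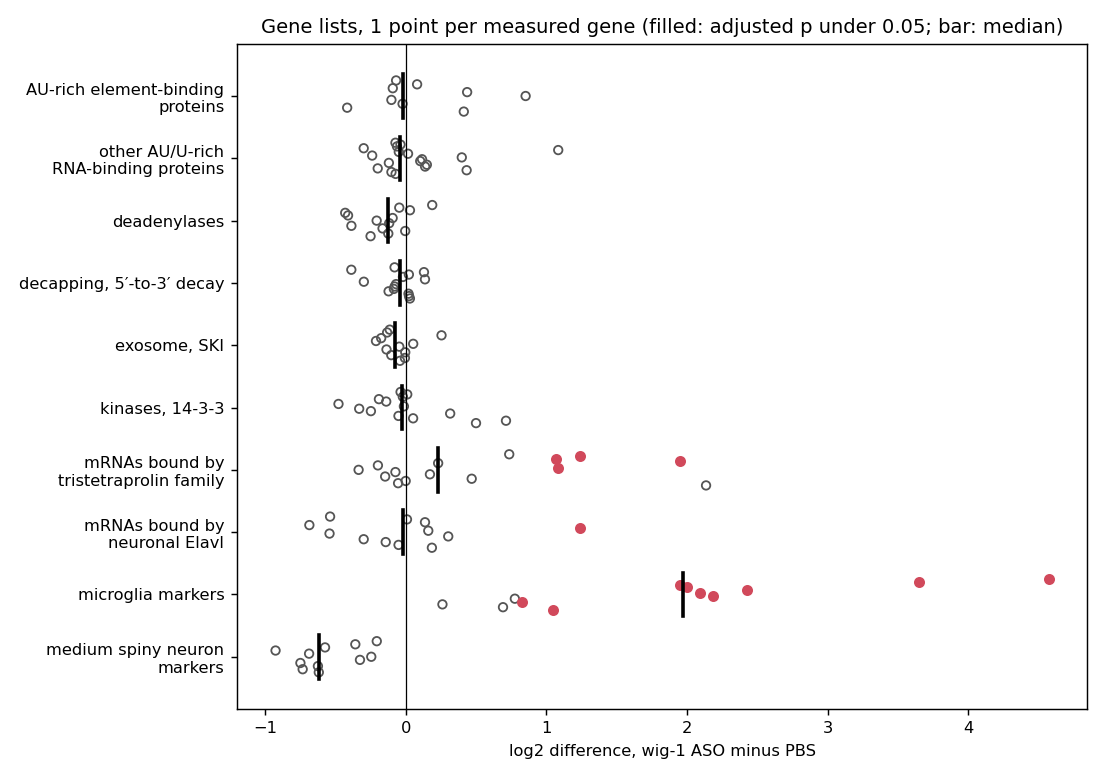
Log2 difference of wig-1 ASO minus PBS (horizontal axis) for each measured gene of 10 lists (vertical axis), with filled points for genes at a limma adjusted p under 0.05 and a bar at the list's median. Filled points occur among the microglial markers (9 of 12) and among mRNAs bound by the tristetraprolin family (4 of 15), while the RNA-binding proteins and the decay machinery have none. Of all genes, 3.81% were called in this comparison.

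The genes whose signal went most closely with each of the 3 members of smallest p were found by Pearson correlation over the 12 arrays. For Zfp36 they were Ccl3 (r = 0.971), a chemokine whose mRNA is itself on the list of tristetraprolin targets, Ifi27 (r = 0.952) and Lyzl4 (r = 0.952). Ccl3 ranged from 1.90 to 3.54 with PBS and from 3.07 to 5.88 with the wig-1 ASO, and gave 2.14 against PBS (SE 0.56, limma adjusted p = 0.0648). Its probe was detected on 2 of the 4 PBS arrays and on 8 of 12 in all. For Zfp36l1 they were Gpnmb (r = 0.965), a glycoprotein of activated macrophages, Sparc (r = 0.952) and Trf (r = 0.951), and Gpnmb rose by 4.57 (SE 0.89, limma adjusted p = 0.0217). Gpnmb is also part of the microglial marker mean used above. For Elavl1 they were Dpagt1 (r = 0.940), Eif2ak2 (r = 0.938), which encodes the RNA-activated kinase PKR, and Wls (r = 0.920). Within groups these 9 correlations lay between 0.824 and 0.933. Members with small differences had closest correlates of like size within groups, at 0.945 for Elavl3 and 0.940 for Tia1. All were picked as the highest r among all measured genes, over arrays that share their groups.

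Among the members themselves, Zfp36 and Zfp36l1 had an r of 0.733 over the 12 arrays and 0.293 within groups. Zfp36 and Elavl2 had an r of -0.817, and -0.661 within groups. Pairs of members with small differences from PBS reached like size within groups, such as Elavl3 with Tia1 (-0.663) and Elavl3 with Elavl4 (0.576). Wig-1 ASO replicate 4, with the lowest Zmat3 value of all 12 arrays (5.95), held both the highest Zfp36 value (5.63) and the lowest Elavl2 value (8.33). That Elavl2 value is flagged below as standing apart from its group. On the same array Elavl1 (6.97) was the lowest of its group, and Zfp36l1 (9.51) was not the highest. Whether the members follow the Zmat3 level was not tested.

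**Figure D5:**
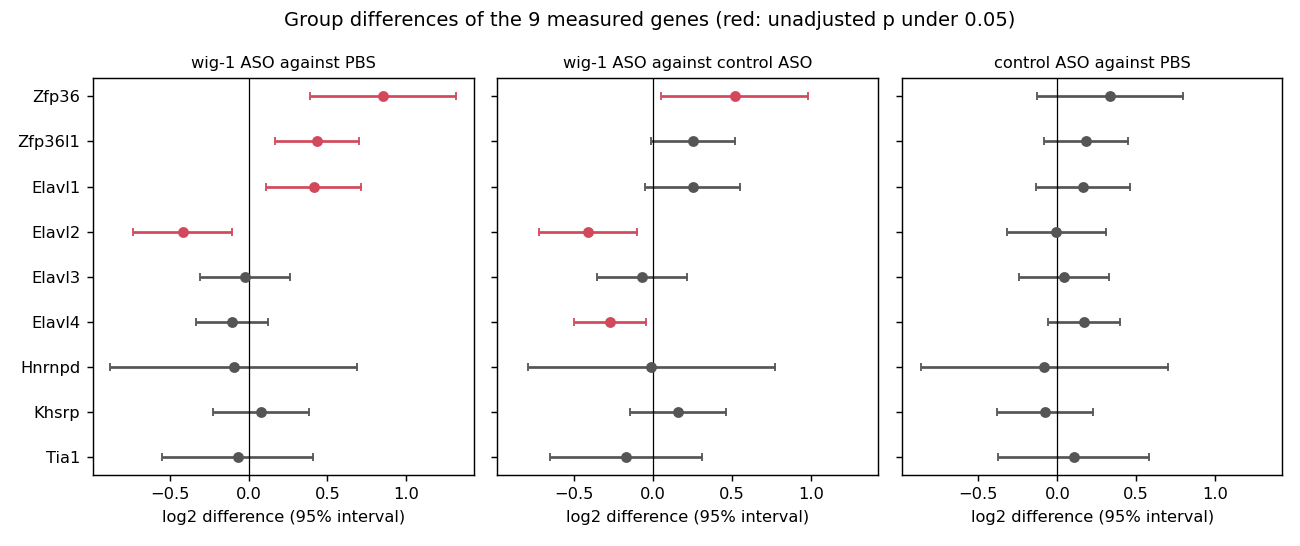
Log2 difference between group means (horizontal axis) with its 95% limma interval for the 9 measured genes, 1 probe each, in the 3 comparisons. Intervals of Zfp36 and Elavl2 leave out 0 in both wig-1 ASO comparisons, and all 9 intervals include 0 in control ASO against PBS.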

How the data were processed

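The authors extracted total RNA from BACHD striatum, hybridized it to Illumina bead arrays and processed the data with lumi; no further setting is given in the sources used here. They deposited an intensity and a detection p-value per probe and array, and a table of log2 values. The deposited intensities carried quantile normalization as received: sorted, they are the same on every one of the 12 arrays (lowest 2, median 2.903, highest 14145), and the deposited log2 values equal log2 of them within 5.6e-09. The plan allowed for raw intensities, and no second normalization was done. Symbols came from the platform annotation (1 for 34885 probes, several for 18, none for 10378). The number of arrays limits the precision.

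The 3 groups were fitted together in limma 3.58.1 (R 4.3.3) on log2 intensity, with Benjamini-Hochberg adjustment over 17188 kept probes. For single genes an exact permutation test (two-sided) was added. SAM, which the methods name through siggenes, was rebuilt as an alternative, and both tests were tested on simulated data. The same replicate numbers occur in each group, and the arrays were treated as unpaired. After group means were removed, 1 of 12 correlations between same-numbered arrays exceeded 0.1. The median was -0.002 for same-numbered and 0.01 for differently numbered arrays of different groups. Such correlations cannot exclude a shared batch. Members and gene lists (17) were chosen with earlier results of these data known. Named genes were the members, Zmat3 and its partners, up to 4 called genes of smallest adjusted p per list or otherwise the 2 of smallest adjusted p, and the 3 closest correlates of the 3 members of smallest p; genes named outside this rule are marked as such. Labels do not say that the arrays of a group are separate mice. The array columns carry the same codes that a figure legend of the study gives to individual animals in its BACHD striatum experiment. The p-values measure the spread between arrays. Promoter windows were read from a RefSeq table and searched for fixed motifs.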

Additional observations from a re-analysis of the deposited data

Results flagged for a closer look

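Dixon's test at the 95% level was applied to each measured gene in each group of 4 arrays, 27 groups in all, and 2 arrays stood apart, where chance gives about 1 in 20. Elavl2 on wig-1 ASO replicate 4 was 8.33 (log2 intensity), while the other 3 arrays of its group lay between 8.80 and 8.89. Zfp36l1 on PBS replicate 4 was 8.87, while the other 3 lay between 9.13 and 9.14.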

How the results depend on the processing

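The count of members called against PBS was 0 and became 1 among probes detected on all 12 arrays (Zfp36, limma adjusted p = 0.0312) and with the mean of a gene's probes (Zfp36, 0.0401). It became 2, Zfp36 and Zfp36l1, with 16 added to each intensity, with an intensity trend and with array weights, and the count of their kept probes went from 0 to 1, 2, 2 and 2 in the same order. Leaving out 1 array at a time gave 0 to 2 genes and 0 to 4 probes, the highest without wig-1 ASO replicate 1. These counts are given without the share of all genes called under the same settings. With the replicate number as a block the counts stayed at 0, while all genes called went from 382 to 154, from 108 to 16 and from 0 to 1. Counts against the control ASO and for control ASO against PBS were 0 throughout, leave-one-out range 0 to 0. Zmat3 ran from -2.04 to -1.73 over the leave-one-out fits and was -2.07 (adjusted p = 0.0661) without the 4 arrays of highest thalamic, hypothalamic and septal markers, an alternative chosen after seeing the data.

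Of 672 single-gene values, 629 kept direction and side of the threshold, 11 passed it newly and 32 changed sign, none of those past the threshold. Array weights gave Elavl3 -0.010 for control ASO against PBS. The mean of probes gave Elavl4 0.14 against PBS, and Elavl2 0.022 and Tia1 -0.27 for control ASO against PBS. Without those 4 arrays Tia1 was 0.039 against PBS, Elavl3 0.024 and Hnrnpd 0.19 against the control ASO, and Elavl3 -0.038 for control ASO against PBS; Tia1 was also 0.039 without wig-1 ASO replicates 2 and 3. The cause was not tested. Leave-one-out ranges against PBS were -0.090 to 0.044 for Elavl3, -0.30 to 0.097 for Hnrnpd, -0.28 to 0.064 for Tia1 and -0.0016 to 0.18 for Khsrp, and -0.22 to 0.30 for Hnrnpd against the control ASO. For control ASO against PBS they were -0.11 to 0.24 for Tia1, -0.067 to 0.076 for Elavl2, -0.022 to 0.14 for Elavl3, -0.14 to 0.018 for Khsrp and -0.39 to 0.11 for Hnrnpd.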
